A study of Mus musculus with 16 samples.

Results

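Genes for stretch-responsive ankyrin-repeat, Xin and LIM proteins of the cardiac sarcomere were examined in heart muscle cells after pressure overload. They were chosen by symbol from the gene-level count table, and all 10 of 10 were present among 35682 genes. Of the 10, 9 passed the filter on low counts, which 10945 genes passed in all, and Ankrd2 did not. The members were Ankrd1, Ankrd2, Ankrd23, Xirp1, Xirp2, Csrp3, Fhl1, Fhl2, Nrap and Flnc.

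RNA was sequenced from ventricular myocytes of 8 WT mice and 8 B3AR-Tg littermates, which carry a transgene for the beta-3 adrenergic receptor. All 16 animals had undergone TAC (transverse aortic constriction), in which a band around the aortic arch makes the left ventricle pump against a raised pressure, and cells were taken 9 weeks later. The groups therefore share the surgery and differ in genotype, and un-operated hearts were not analysed here. Myocytes were freed by Langendorff perfusion of the heart and were plated for an hour before lysis. The promoter that drives the transgene, and the age and sex of the animals, are not given in the sources used here. The replicates are described as biological.

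The sarcomere is anchored at the Z-disc, where titin, actin and many adaptor proteins meet, and at the intercalated disc, where neighbouring myocytes pull on each other. Muscle ankyrin-repeat proteins bind titin and also enter the nucleus, Xin proteins bind actin at the intercalated disc, and LIM-domain adaptors hold signalling and structural proteins at the Z-disc. Ankrd1, Xirp2, Csrp3 and the Fhl genes are textbook examples of genes that respond to load or to cardiac disease, and Ankrd1 is a known target of the YAP and TEAD transcription factors.

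Libraries held 5985335 to 14365864 assigned counts (WT 6926821 to 11584656), so that 3 counts, the limit that a count of 0 allows, correspond to 0.201 to 0.487 CPM (counts-per-million). These limits cover counting error only. All levels are in CPM of the total scaled by edgeR's TMM factors. Summed CPM of 10 ventricular myocyte markers was 53761 to 68277 in WT and 61121 to 72851 in B3AR-Tg libraries. Of these 10, 1 was called, Ryr2, as higher in B3AR-Tg (log2 fold change 0.46, SE 0.12, edgeR adjusted p 0.0359). Myh6 and Atp2a2, also counted among the load markers below, are part of that sum. The 5 atrial myocyte markers summed to 20.4 to 92.2 CPM in WT and 14.5 to 65.7 CPM in B3AR-Tg, with 0 of 4 called. Fibroblast markers were lower in the B3AR-Tg libraries, where the summed level of 8 of them was 12.01 to 65.1 CPM against 45.9 to 190 CPM in WT, and 5 of the 7 that could be tested were called lower. Tcf21, a defining fibroblast marker, was at 0 to 0.44 CPM. The 8 endothelial markers summed to 91.0 to 132 against 41.2 to 162 CPM with 2 of 8 called lower, and the 8 mural markers to 83.1 to 144 against 43.6 to 138 CPM with 0 of 6 called. The 8 leukocyte markers summed to 4.03 to 13.9 against 0.795 to 7.08 CPM with 0 of 3 called, and Cd3e was at 0 in all libraries. In bulk RNA, fewer cells of a type and less RNA per cell cannot be told apart.

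The promoter windows of Ankrd1, Ankrd23 and Xirp2 are shown because these members moved in the same direction. A window of Flnc, whose level did not differ, is added. They come from RefSeq on GRCm38.p6, run from 250 bases before to 50 bases after an annotated start, and are written 5′ to 3′ on the gene's strand. Windows were given for 9 of the 10 members, 14 in all. Capitals mark matches, on either strand, to 5 motifs. MCAT, the core of the TEAD site, was searched as CATTCC, and the TATA box as TATAAA. The motif named GATA was searched as AGATAA, as the variant AGATAG ending in G, and also with a leading T, as TGATAA and likewise as TGATAG. CArG, the site of serum response factor, and MEF2 were searched by their usual consensus. The Ankrd1 window is chr19:36119795-36120094 on the minus strand. The Ankrd23 windows are chr1:36536507-36536806 and chr1:36535690-36535989, both on the minus strand. The Xirp2 window is chr2:67445752-67446051 and the first Flnc window chr6:29432903-29433202, both on the plus strand.
Ankrd1: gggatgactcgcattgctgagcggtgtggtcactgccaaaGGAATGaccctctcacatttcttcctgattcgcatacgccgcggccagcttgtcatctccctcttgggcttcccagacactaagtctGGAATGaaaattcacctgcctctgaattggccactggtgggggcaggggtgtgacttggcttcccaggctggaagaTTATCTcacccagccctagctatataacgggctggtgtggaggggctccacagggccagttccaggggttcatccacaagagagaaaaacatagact
Ankrd23, window 1: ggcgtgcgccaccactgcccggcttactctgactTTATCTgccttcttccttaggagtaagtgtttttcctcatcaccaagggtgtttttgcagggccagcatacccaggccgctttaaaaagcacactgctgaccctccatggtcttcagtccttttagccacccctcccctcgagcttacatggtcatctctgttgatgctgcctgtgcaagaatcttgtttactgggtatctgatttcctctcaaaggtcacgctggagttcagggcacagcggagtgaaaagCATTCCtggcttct
Ankrd23, window 2: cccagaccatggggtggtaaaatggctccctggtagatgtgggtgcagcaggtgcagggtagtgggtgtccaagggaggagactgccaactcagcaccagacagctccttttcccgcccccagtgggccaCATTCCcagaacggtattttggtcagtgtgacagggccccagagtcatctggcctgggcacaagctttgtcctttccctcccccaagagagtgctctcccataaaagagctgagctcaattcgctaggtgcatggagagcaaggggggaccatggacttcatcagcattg
Xirp2: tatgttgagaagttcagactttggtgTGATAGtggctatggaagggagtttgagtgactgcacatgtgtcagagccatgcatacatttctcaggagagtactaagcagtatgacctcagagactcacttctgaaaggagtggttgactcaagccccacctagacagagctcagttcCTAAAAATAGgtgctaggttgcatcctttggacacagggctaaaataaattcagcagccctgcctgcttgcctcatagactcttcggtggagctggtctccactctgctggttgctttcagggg
Flnc, window 1: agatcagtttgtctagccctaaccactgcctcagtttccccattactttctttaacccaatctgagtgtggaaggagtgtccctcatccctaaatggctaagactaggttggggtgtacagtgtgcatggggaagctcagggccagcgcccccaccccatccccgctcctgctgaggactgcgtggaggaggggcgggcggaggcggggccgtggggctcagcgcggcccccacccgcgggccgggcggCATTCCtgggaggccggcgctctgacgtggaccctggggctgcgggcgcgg

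Counting the first base after the annotated start as 0, the Ankrd1 window held MCAT matches at -210 to -205 and at -123 to -118 and a GATA match at -47 to -42. Ankrd23 had an MCAT match at 36 to 41 in its window 1 and at -120 to -115 in its window 2. Xirp2 had a MEF2 match at -74 to -65 and no MCAT match, and Flnc had an MCAT match at -1 to 4 that its second, overlapping window shares. MCAT matched in 5 of the 14 member windows, the Flnc site being counted in both overlapping windows, and in 14.7% of all 32851 windows. The matches lie in Ankrd1, Ankrd23 and Flnc, 3 of the 9 members with windows. The printed windows thus include every member with an MCAT match and leave out most without. GATA matched in 6 of the 14 (29.8% of all windows), TATA in 3 (13.6%), CArG in 3, all of Fhl1 or Fhl2 (1.63%), and MEF2 in 2, of Xirp2 and Fhl2 (3.19%). In Fhl2 the MEF2 and TATA matches overlap. The TATA matches of Fhl1, at -156 to -151, and of Fhl2 read TTTATA, the form on the other strand. The letters tatataa in the Ankrd1 window were not searched for and are unmarked. A match is a description of the letters and not a binding site.

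Of the 9 tested members 3 differed between genotypes, Ankrd1, Ankrd23 and Xirp2, and all 3 were lower in B3AR-Tg. For comparison, 4.91% of all tested genes passed the threshold in either direction, 2.88% passed it as lower and 2.03% as higher (edgeR, Benjamini-Hochberg adjusted p under 0.05). Scaled by library size only, the same 3 members were called lower, while 1.51% of all genes were lower and 3.16% higher. Csrp3, Nrap, Fhl1, Fhl2, Xirp1 and Flnc did not pass. Of the 9 fitted log2 fold changes, 6 were negative and 3 positive, with a median of -0.25 against 0.01 over all tested genes. In 0 of 9 did the B3AR-Tg animals lie wholly below or above the WT animals, which occurred in 0.247% and 0.201% of all tested genes respectively. The plot of levels by animal shows this overlap.

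**Figure D1:**
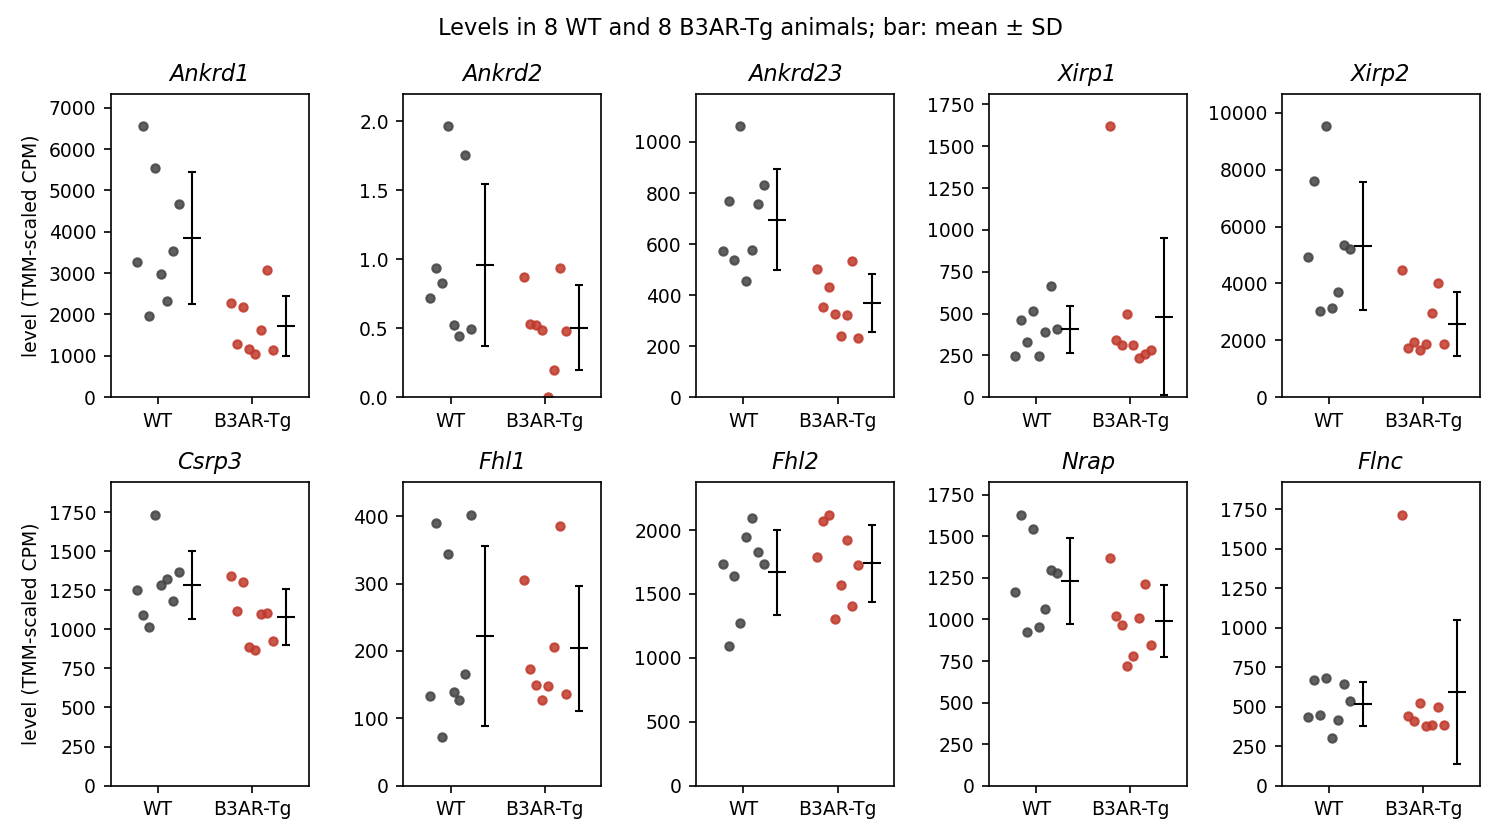
Levels of the 10 genes in TMM-scaled CPM (vertical axis, starting at 0, a separate scale for each gene); each point is 1 animal, 8 WT in grey and 8 B3AR-Tg in red, and bars show the mean ± SD. The B3AR-Tg points of Ankrd1, Ankrd23 and Xirp2 lie low while overlapping WT, and 1 B3AR-Tg animal stands far above the others for Xirp1 (1621 CPM) and Flnc (1716 CPM).

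Among the ankyrin-repeat genes, Ankrd1 encodes the cardiac ankyrin-repeat protein, which binds titin and also acts on transcription. Ankrd1 was at 1964 CPM in the lowest WT animal, 3410 at the median and 6556 in the highest, and at 1033, 1458 and 3064 CPM in B3AR-Tg. No B3AR-Tg animal reached the WT median, but 3 of them, replicates 1, 3 and 7, lay above the lowest WT animal. The means were 3856 ± 1601 and 1722 ± 723 CPM (SD, n = 8 each), a 2.24-fold lower level in B3AR-Tg with a log2 fold change of -1.16 (SE 0.25, edgeR adjusted p 0.0131). Ankrd23, a relative that also binds titin, was at 456, 666 and 1062.5 CPM in WT and at 233, 340 and 533 CPM in B3AR-Tg (lowest, median, highest). Again no B3AR-Tg animal reached the WT median, and B3AR-Tg replicates 1 and 7 overlapped WT. Its means of 695 ± 198 and 368 ± 112 CPM gave a log2 fold change of -0.92 (SE 0.18, edgeR adjusted p 0.00820), or 1.89-fold lower. Ankrd2, the family member best known from skeletal muscle, had 3 to 22 counts per library in WT and 0 to 13 in B3AR-Tg. At 0.958 ± 0.585 against 0.503 ± 0.309 CPM it lay near the limit of 3 counts and was not tested. Summed levels of 8 fast skeletal muscle markers were 0.240 to 1.62 CPM in WT and 0.623 to 1.47 CPM in B3AR-Tg.

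Of the Xin genes Xirp2 was called and Xirp1 was not. Xirp2, which encodes an actin-binding Xin-repeat protein of the intercalated disc, was at 3043, 5071 and 9534 CPM in WT and at 1642, 1917 and 4457 CPM in B3AR-Tg (lowest, median, highest). In B3AR-Tg, 5 animals lay at 1642 to 1957 CPM and the other three, replicates 1, 6 and 7, higher, with replicates 1 and 7 inside the WT range. The means of 5314 ± 2254 and 2564 ± 1117 CPM gave a log2 fold change of -1.05 (SE 0.25, edgeR adjusted p 0.0215), or 2.07-fold lower. Without WT replicate 4, the highest animal, the adjusted p of Xirp2 was 0.0526, and without B3AR-Tg replicate 5 it was 0.0508. Xirp1, the other Xin gene and a known partner of filamin C, was at 245, 396 and 665 CPM in WT and at 233, 310 and 1621 CPM in the B3AR-Tg group. One library, B3AR-Tg replicate 1, set the highest Xirp1 value, and the other 7 B3AR-Tg animals lay at 233 to 497 CPM. With all animals the log2 fold change of Xirp1 was 0.25 (SE 0.34, adjusted p 0.747), and without that library it was -0.35 (adjusted p 0.355). Without it the same 3 members were called, beside 4.52% of all tested genes.

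All 3 calls were lost in a fit that added, as a covariate, the mean log2 CPM of 24 markers of fibroblasts, endothelial, mural and immune cells. That mean was 2.55 to 3.40 in WT and 0.852 to 2.73 in B3AR-Tg libraries, so it differed between the genotypes itself. In that fit the log2 fold change was -0.67 for Ankrd1 (adjusted p 0.404), -0.75 for Ankrd23 (adjusted p 0.208) and -0.59 for Xirp2 (adjusted p 0.470). Over all genes only 0.0822% were called there. The part of other cells in the lower levels of Ankrd1, Ankrd23 and Xirp2 and the part of the genotype cannot be told apart by this fit.

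Flnc encodes filamin C, the actin crosslinker of muscle Z-discs and cell junctions. Its levels were 303, 493 and 680 CPM in WT and 379, 426 and 1716 CPM in B3AR-Tg (lowest, median, highest). As for Xirp1, the top Flnc value came from B3AR-Tg replicate 1, and the other 7 B3AR-Tg animals, at 379 to 522 CPM, lay inside the WT range. The log2 fold change of Flnc was 0.20 (SE 0.28, edgeR adjusted p 0.751) with all animals and -0.26 (adjusted p 0.368) without that library.

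None of the 4 LIM genes passed the test. Csrp3 encodes muscle LIM protein, a Z-disc adaptor whose loss causes dilated cardiomyopathy in mice. Csrp3 was at 1016, 1269 and 1734 CPM in WT and at 865, 1102 and 1341 CPM in B3AR-Tg, with 2 B3AR-Tg animals above the WT median. Its log2 fold change of -0.25 (SE 0.11) did not pass, with an edgeR p of 0.0418 before and 0.241 after adjustment. Nrap encodes a nebulin-related LIM protein that anchors actin at the intercalated disc and helps to assemble myofibrils. Nrap was at 923, 1221 and 1632 CPM in WT and at 722, 986 and 1368 CPM in B3AR-Tg, and 1 B3AR-Tg animal exceeded the WT median. Its log2 fold change of -0.32 (SE 0.14) had an edgeR p of 0.0333 before and 0.214 after adjustment.

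Fhl1 and Fhl2 encode LIM-only proteins that bind titin and signalling kinases. Fhl1 was at 72.0, 152 and 403 CPM in WT and at 128, 161 and 385 CPM in B3AR-Tg animals, so that the groups overlapped almost fully (log2 fold change -0.12, SE 0.32, edgeR adjusted p 0.879). The WT animals fell into separate levels of Fhl1, with replicates 2, 4 and 8 at 344 to 403 CPM and the other 5 at 72.0 to 165 CPM. The same 3 WT animals had the highest Myh7, the slow myosin heavy chain induced by load, at 4271 to 5351 CPM against 797 to 1418 CPM in the other 5. In B3AR-Tg, replicates 1 and 7 were high for Fhl1 and the other 6 lay at 128 to 206 CPM. Fhl2 was at 1096, 1735 and 2093 CPM in WT and at 1305, 1759 and 2121 CPM in B3AR-Tg animals (log2 fold change 0.06, SE 0.13, edgeR adjusted p 0.849). WT replicates 2 and 4, high for Fhl1 and Ankrd1, were the lowest 2 of the 8 WT animals for Fhl2. Replicate 8, also high for both, was at 1734 CPM of Fhl2, near the WT median.

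**Figure D2:**
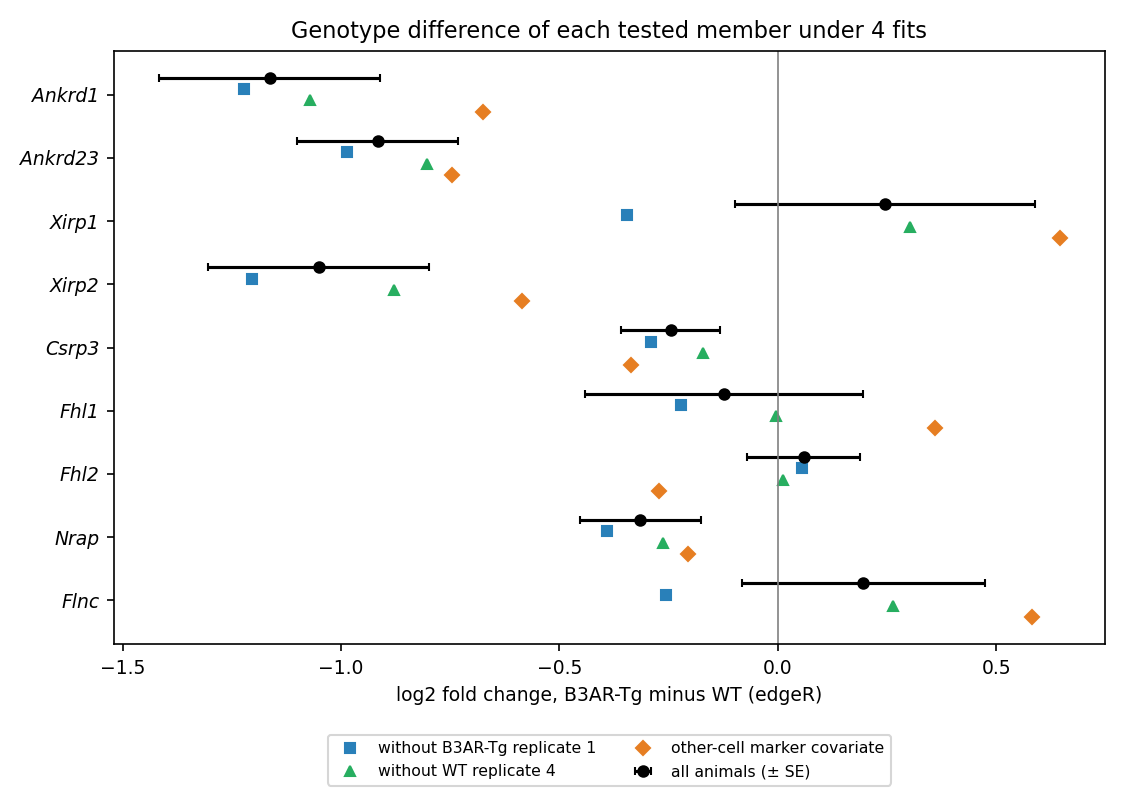
Log2 fold change of each tested gene, B3AR-Tg minus WT (horizontal axis), with all animals (black, bars ± SE) and in 3 other fits, each marked by its own symbol. Ankrd1, Ankrd23 and Xirp2 stay left of 0 in all 4 fits, with the marker covariate nearest to 0, while Xirp1 and Flnc move to the left of 0 when B3AR-Tg replicate 1 is left out.

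Levels between genes were compared per kilobase of merged exons. In WT, Ankrd1 was the most abundant of the 10 at 1336 ± 555 CPM per kilobase, followed by Fhl2 at 880 ± 176, Csrp3 at 480 ± 81.3, Xirp2 at 444 ± 188, Ankrd23 at 258 ± 73.3 and Nrap at 224 ± 47.0. Xirp1 at 69.6 ± 24.1, Fhl1 at 59.7 ± 36.03 and Flnc at 54.9 ± 14.8 formed a lower tier, and Ankrd2 was at 0.841 ± 0.514. In B3AR-Tg, Fhl2 stood first at 917 ± 157 CPM per kilobase and Ankrd1 next at 597 ± 251, then Csrp3 at 405 ± 67.3, Xirp2 at 214 ± 93.2, Nrap at 180 ± 39.4 and Ankrd23 at 137 ± 41.6. Below them came Xirp1 at 82.5 ± 80.0, Flnc at 62.9 ± 48.7, Fhl1 at 54.9 ± 25.1 and Ankrd2 at 0.442 ± 0.272. In WT, neighbours differed by more than the larger of their SDs only between Fhl2 and Csrp3, between Nrap and Xirp1 and between Flnc and Ankrd2. In B3AR-Tg, they did so between Fhl2 and Ankrd1, between Csrp3 and Xirp2, between Nrap and Ankrd23 and between Fhl1 and Ankrd2. With the length of the longest transcript, Fhl1 and Xirp1 exchanged places in WT and Fhl1 and Flnc in B3AR-Tg, and some separations changed. Ankrd1 was then above Fhl2 by more than the larger SD in WT and above Csrp3 in B3AR-Tg, while in B3AR-Tg neither Fhl2 over Ankrd1 nor Nrap over Ankrd23 exceeded that spread any longer.

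Ratios within a library compare related genes without any scaling between libraries. For 6 pairs the log2 ratio of counts was taken in each animal and tested by exact two-sided permutation of the genotypes, with Benjamini-Hochberg adjustment over the 6. Xirp2 to Xirp1 had a log2 ratio of 3.68 ± 0.49 in WT and 2.64 ± 0.86 in B3AR-Tg (SD, n = 8 each), below the WT median in 7 of 8 B3AR-Tg animals. The difference of -1.04 had an exact permutation p of 0.0115 and an adjusted p of 0.0690. Leaving out B3AR-Tg replicate 6, 7 or 8 gave adjusted exact permutation p of 0.0298, 0.0149 and 0.0494, and the other 13 single leave-outs gave 0.0508 to 0.137. Without replicate 1 the difference was -0.87 (adjusted 0.0904). Flnc to Flna, which encodes the filamin of non-muscle cells, was 4.95 ± 0.37 in WT and 5.63 ± 0.72 in B3AR-Tg, with all 8 B3AR-Tg animals above the WT median. This difference of 0.68 had an exact permutation p of 0.0247 and an adjusted p of 0.0741, which became 0.0494 without B3AR-Tg replicate 8 and lay between 0.0508 and 0.152 in the other 15 single leave-outs. Flna itself averaged 16.5 ± 4.19 CPM over WT animals against 10.8 ± 3.23 CPM (edgeR adjusted p 0.0659). The fibroblast marker sums given above were lower in the same group, and their part in the ratio was not tested.

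The ratio of Ankrd1 to Ankrd23 averaged 2.41 ± 0.39 over WT and 2.18 ± 0.24 over B3AR-Tg animals, differing by -0.23 (exact permutation p 0.176, adjusted 0.264). Ankrd1 and Ankrd23 thus fell by amounts whose difference was within the spread. Csrp3 to Fhl2 differed by -0.31 (exact permutation p 0.0629, adjusted 0.126), Fhl2 to Fhl1 by 0.06 and Ankrd1 to Ankrd2 by -0.07 (adjusted 0.904 for both). The few Ankrd2 counts leave that last value to the prior count, since with 2 in place of 0.5 it was -0.34 (adjusted exact permutation p 0.403). None of the 6 ratios passed after adjustment with all animals.

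**Figure D3:**
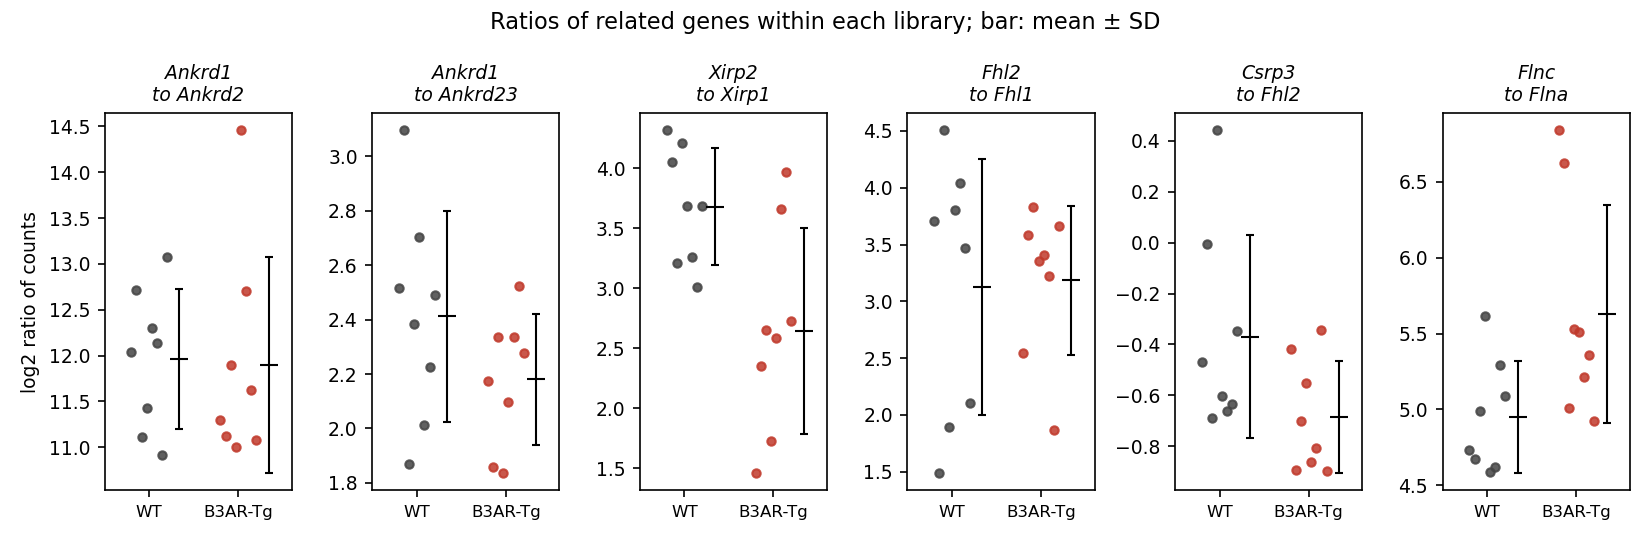
Log2 ratio of counts for 6 pairs of related genes (vertical axis, a separate scale for each pair, not starting at 0); each point is 1 animal, 8 WT in grey and 8 B3AR-Tg in red, and bars show the mean ± SD. The B3AR-Tg points lie lower for Xirp2 to Xirp1 and higher for Flnc to Flna, with overlap in both.

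Animals of one genotype differed widely, so each tested member was compared with Ankrd1 within genotype, as correlations of log2 CPM over 8 animals (14 relations tested by exact permutation, adjusted over the 14). In WT, Nrap (Pearson r 0.93, Spearman rho 0.95) and Xirp2 (r 0.90, rho 0.93) followed Ankrd1, with adjusted exact permutation p of 0.0122 and 0.0183 for r and 0.0156 for both rho. Without WT replicates 2 and 3, the animals farthest from the median, r was 0.85 for both and no longer passed (adjusted 0.0972). In B3AR-Tg, Ankrd23 (r 0.92, rho 0.90, adjusted exact permutation p 0.0122 and 0.0213), Fhl1 (r 0.83, rho 0.83, adjusted 0.0352 and 0.0489) and Nrap (r 0.82, rho 0.81, adjusted 0.0416 and 0.0489) passed. Without B3AR-Tg replicates 1 and 7, r was 0.82 for Ankrd23, 0.39 for Fhl1 and 0.64 for Nrap, with adjusted exact permutation p of 0.107, 0.528 and 0.233. Without those animals, none of the 3 relations passed with the 6 that remained. The r of Fhl1 fell most, and its relation rests on replicates 1 and 7. Fhl1 in WT (r 0.95, rho 0.90) and Xirp2 in B3AR-Tg (r 0.80, rho 0.76) fell into separate levels. They were therefore left out of the 14 and have no adjusted p, since the gap between levels can set such an r.

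The remaining members followed Ankrd1 less closely. In WT, Fhl2 ran against Ankrd1 (r -0.76, rho -0.62, adjusted exact permutation p 0.0545 and 0.146), and in B3AR-Tg its r was 0.07 (rho 0.21, adjusted 0.865 and 0.667). By exact permutation, Ankrd23 in WT (r 0.77, rho 0.81, adjusted 0.0545 and 0.0489), Flnc in WT (r 0.70, rho 0.79, adjusted 0.0852 and 0.0489) and Csrp3 in B3AR-Tg (r 0.77, rho 0.79, adjusted 0.0545 and 0.0489) passed for rho only. Without the 2 animals named above for each genotype, r in WT was 0.85 for Ankrd23, 0.71 for Flnc and -0.89 for Fhl2. In B3AR-Tg r was then 0.93 for Csrp3 and 0.68 for Fhl2. With those 6 animals the adjusted exact permutation p were 0.0972, 0.231, 0.0681, 0.0681 and 0.231, in that order, so none passed. Neither Xirp1 (r 0.45, rho 0.64) nor Csrp3 (r 0.38, rho 0.26) in WT passed, nor Flnc in B3AR-Tg (r 0.42, rho 0.64), with adjusted exact permutation p of 0.356, 0.416 and 0.356 for r and 0.135, 0.626 and 0.135 for rho. Xirp1 in B3AR-Tg was unrelated in rank to Ankrd1 (r 0.18, rho 0.00, adjusted exact permutation p 0.816 and 1).

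**Figure D4:**
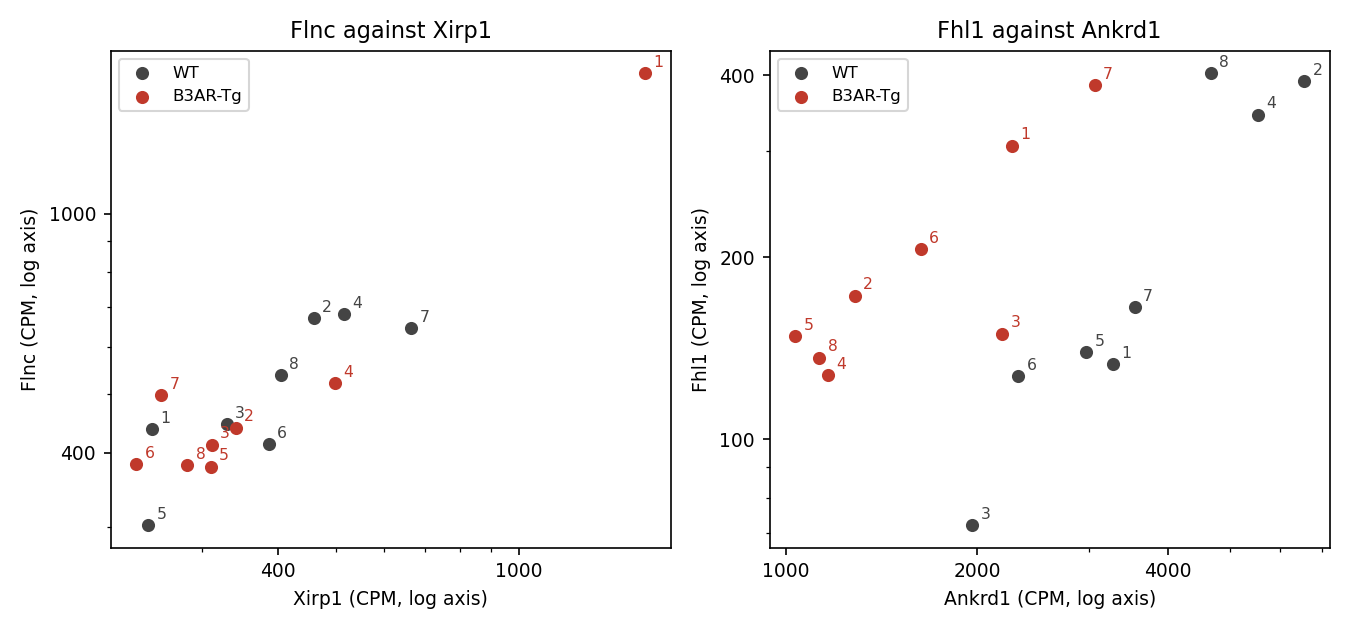
Left, Flnc against Xirp1, and right, Fhl1 against Ankrd1, in CPM on log axes; each point is 1 animal labelled with its replicate number, WT in grey and B3AR-Tg in red. B3AR-Tg replicate 1 stands alone at 1621 CPM of Xirp1 and 1716 CPM of Flnc, and WT replicates 2, 4 and 8 are high for both Ankrd1 and Fhl1.

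B3AR-Tg replicate 1 was also the deepest library, with 14365864 counts. Its Xirp1 level was 5.23 times, and its Flnc level 4.16 times, the median of the other 7 B3AR-Tg animals. Xirp2 was 2.37 times that median, Fhl1 2.05 times and Ankrd1 1.77 times, while Fhl2 was 1.04 times. Ranked by this excess on the log2 scale over all 10945 tested genes, Xirp1 was 11 and Flnc 18. Abra and Hspa1a, ranked 4 and 3, were picked from the genes above them after their values were seen. Abra, a gene of striated muscle, reached 556 CPM, with the other 7 animals between 56.2 and 136 CPM. Hspa1a, a heat-shock chaperone with a near-identical copy in Hspa1b, was at 315 CPM, with the other 7 between 22.3 and 112 CPM. The part of depth in these values was not tested.

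The genes whose deviations from the genotype mean were most like those of Ankrd1, over 16 animals and 10945 genes, were Gask1b (r 0.92), Otulin (0.91), Cdv3 (0.91), Col4a2 (0.91) and Cnksr1 (0.91). Of the members without separate levels in a genotype, Nrap (0.87) and Ankrd23 (0.84) were nearest to these values, followed by Csrp3 (0.58), Flnc (0.50) and Xirp1 (0.27), and Fhl2 (-0.40) was of opposite sign. Fhl1 (0.88) and Xirp2 (0.85), each with separate levels in a genotype, stand outside that order. The genes most like the mean standardised profile of the 9 tested members were Enah (0.94), Otulin (0.93), Hspa1l (0.93), Slain2 (0.90) and Gas2l3 (0.90). These are descriptions, since the libraries share depth and cell composition among all genes.

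Among 23 other Z-disc, titin and filamin C partners, 22 were tested and 2 were called, both lower: Synpo2l and Myoz2. That is 9.09%, against 4.91% of all tested genes called in either direction and 2.88% called lower. Synpo2l, a Z-disc and actin-binding protein, averaged 133 ± 84.0 CPM over WT animals and 51.5 ± 25.0 CPM over the B3AR-Tg animals (a log2 fold change of -1.37, SE 0.32, edgeR adjusted p 0.0176). Myoz2, the cardiac calsarcin that binds calcineurin at the Z-disc, averaged 1359 ± 183 CPM over WT animals and 1051 ± 168.0 CPM over the B3AR-Tg animals (a log2 fold change of -0.37, SE 0.10, edgeR adjusted p 0.0436). The other 20 did not pass, titin (Ttn), named after its value was seen, among them with a log2 fold change of 0.14 (SE 0.15, adjusted p 0.655), and the median was -0.13. Synpo2l was called in all 16 fits that each left out an animal and Myoz2 in 5, being lost without WT replicate 1, 4, 5, 6, 7 or 8 and without B3AR-Tg replicate 1, 4, 5, 7 or 8 (adjusted p up to 0.153 over all alternatives). Scaled by library size only, Synpo2l was called lower and Tcap higher, and Myoz2 was not called.

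Among 22 further LIM, nebulin-family and filamin genes, 18 were tested and 1 was called (5.56%, near the 4.91% of all tested genes), Lims2, an adaptor of integrin-linked kinase, at 7.01 ± 0.871 CPM over WT animals against 4.52 ± 1.53 CPM. Its log2 fold change was -0.65 (SE 0.17, edgeR adjusted p 0.0331), and the median of the 18 was -0.30. The call was lost without WT replicate 2, 6, 7 or 8 and without B3AR-Tg replicate 2, 5, 6 or 8. Scaled by library size only, Lims2 was not called and Lims1 was called higher. Of 25 genes of mechanosensitive and muscle transcription, 21 were tested and 1 was called (4.76%, near the same background), Mef2d, a muscle transcription factor, which was higher in B3AR-Tg at 49.7 ± 7.45 against 37.4 ± 6.68 CPM (log2 fold change 0.41, SE 0.11, edgeR adjusted p 0.0378). Mef2d was not called without WT replicate 1, 4, 5, 6, 7 or 8 or without B3AR-Tg replicate 1, 4, 5, 7 or 8. Yap1, Tead1 and Ccn2, the last a YAP target like Ankrd1, were chosen after their values were seen. Their log2 fold changes were -0.03 (SE 0.10), 0.02 (SE 0.19) and -0.99 (SE 0.49), with edgeR adjusted p of 0.905, 0.966 and 0.277. Ccn1, Amotl2 and Lats2 of the same list, named likewise, were at 0.03 (SE 0.27), -0.04 (SE 0.13) and 0.18 (SE 0.14). Their edgeR adjusted p were 0.973, 0.909 and 0.503. B3AR-Tg replicate 1 stood out within its group for both Ccn genes, with 165 CPM of Ccn1 and 187 CPM of Ccn2. The rest of that group spanned 30.3 to 67.4 CPM for Ccn1 and 19.3 to 53.6 CPM for Ccn2. Replicate 1 alone exceeded the WT median of Ccn2, while 2 B3AR-Tg animals exceeded that of Ccn1. Without this library, 1 gene of this list and 4 of the LIM, nebulin-family and filamin list were called, all lower. A shared change of YAP targets was not tested. The median of the 21 was 0.03.

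Of 6 markers of cardiac load, Nppa, Nppb, Myh7 and Acta1 were called lower, against 2.88% of all tested genes. Their log2 fold changes were -3.99 (SE 0.68), -1.13 (SE 0.27), -2.03 (SE 0.39) and -1.74 (SE 0.43) (edgeR adjusted p 0.00362, 0.0223, 0.00632 and 0.0245). The other 2, Myh6 and Atp2a2, did not pass and went the other way, both at 0.27 (SE 0.09, edgeR adjusted p 0.108 and 0.0798). For each of them all 8 B3AR-Tg animals lay above the WT median. Nppa was at 78.4, 263 and 1349 CPM in WT and at 5.76, 23.2 and 120 CPM in B3AR-Tg (lowest, median, highest). Myh7 was at 797, 1338 and 5351 CPM in WT and at 416, 591 and 1093 CPM in B3AR-Tg. WT replicates 2, 4 and 8 were the highest WT animals for both genes. With limma voom the log2 fold change of Myh7 was -1.40. Nppb was not called without WT replicate 4 or B3AR-Tg replicate 5, nor Acta1 without WT replicate 2 or B3AR-Tg replicate 5. The falls of Ankrd1, Ankrd23 and Xirp2, given above, were of a size near that of Nppb, and the difference between them was not tested. With the marker covariate, Nppa, Nppb, Myh7, Acta1, Synpo2l, Myoz2, Lims2 and Mef2d were not called either.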

How the data were processed

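Stranded, ribodepleted total RNA libraries of 16 animals were analysed from the whole-number counts per gene that the authors deposited. Salmon and GRCm39 are named, with no role or version, per the submitters' processing notes, so the counts may be rounded estimates. Samples were grouped by the labelled genotype, 8 WT and 8 B3AR-Tg. Genes were filtered with filterByExpr (minimum count 10), scaled by TMM and tested two-sided with the quasi-likelihood test of edgeR 4.0.16 in R 4.3.3, with Benjamini-Hochberg adjustment over all 10945 tested genes. The scripts were tested on simulated data. DESeq2 1.42.0, limma 3.58.1, other scalings and filters, a replicate block, a marker covariate and leaving out each animal were tried. Ratios (prior count 0.5) and correlations (prior count 2) used exact permutations in scipy 1.17.1. Exon lengths came from GENCODE M21 on GRCm38, matched by gene ID, since no GRCm39 annotation was used here. Named genes are all 10 members, up to 4 called genes with the smallest p per list, the 5 genes most like Ankrd1 and the 5 most like the members' mean, and Flna. Outside that rule, Ttn, Tcap, Lims1, Yap1, Tead1, Ccn1, Ccn2, Amotl2, Lats2, Abra, Hspa1a and Hspa1b were named after their values were seen. So were Myh6, Atp2a2 and the markers Ryr2, Tcf21 and Cd3e. Members and lists were chosen with earlier results of these data known. The rule for separate levels within a genotype and the ranking of B3AR-Tg replicate 1 were chosen after seeing the values.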

Additional observations from a re-analysis of the deposited data

Results flagged for a closer look

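In 48 groups of 8 animals, a highest or lowest animal set apart from the rest was searched for. Groups held log2 CPM of a gene or the log2 ratio of a related pair, so some genes were used more than once. By the gap to the neighbour as a share of the group's range, 3 groups, all of log2 CPM, were above Dixon's 95% critical value. Chance sets an animal apart in about 1 in 20 groups, or 2.4 of the 48. For Xirp1 in B3AR-Tg the share was 0.61, with replicate 1 high at 1621 CPM. Flnc in B3AR-Tg had a share of 0.788, again with replicate 1 high, at 1716 CPM. For Flna in WT the share was 0.607, with replicate 2 high.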

How the results depend on the processing

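Ankrd1, Ankrd23 and Xirp2 were lower in B3AR-Tg in all 25 alternatives, and were called in 23, 24 and 21 of them. The log2 fold changes ranged from -1.33 to -0.67, from -1.01 to -0.75 and from -1.20 to -0.59, with adjusted p of 0.0038 to 0.404, 9.13e-05 to 0.208 and 0.00921 to 0.470.

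No pairing by the shared replicate numbers was seen: 0 of 8 same-numbered pairs had deviations correlated above 0.1 (-0.219 to 0.0935). Of the 8, 0 correlated best with their own number. A pairing that leaves no shared deviations would be missed by this check. With the replicate number as a block, 230 genes were called against 537, and 1 member, 1 Z-disc partner, 0 relatives and 0 mechanosensitive genes. Ankrd23 was the member called. Ankrd1 had a log2 fold change of -1.16 (adjusted p 0.052) and Xirp2 of -1.04 (adjusted p 0.0506). Under the block Xirp1 was at -0.0822, Fhl1 at 0.0239 and Flnc at -0.0027. The ratios Xirp2 to Xirp1 and Flnc to Flna had an adjusted exact p of 0.234 by sign flips within same-numbered pairs.

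With the marker covariate, 9 genes were called, and 0 members, Z-disc partners, relatives, mechanosensitive genes or load markers. There Fhl1 was at 0.36 and Fhl2 at -0.27. With limma voom, 706 of 10945 genes were called, against 537 in the main fit. Relatives and mechanosensitive genes had 2 calls each there, Xirp1 was at -0.0668, Fhl1 at 0.0735 and Flnc at -0.0084. DESeq2 called 804 of 10945 genes, with 5 Z-disc partners and 3 relatives. With no low-count filter, 475 of 20301 genes were called, with 1 Z-disc partner and 0 relatives. Scaled by library size only, 346 genes were higher and 165 lower against 222 and 315, the median log2 fold change of all genes was 0.08 against 0.01, and Myh6 and Atp2a2 were called higher among the load markers. The cause of these changes was not tested.

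Leaving out 1 animal gave 272 to 675 called genes, 2 to 3 members, 1 to 4 Z-disc partners, 0 to 4 relatives, 0 to 2 mechanosensitive genes and 2 to 5 load markers. Xirp1 ranged from -0.345 to 0.383 and Flnc from -0.256 to 0.275, both negative only without B3AR-Tg replicate 1. Fhl1 ranged from -0.318 to 0.0556, positive only without WT replicate 2 (0.0515) or 8, and Fhl2 from -0.0077 to 0.113, negative only without WT replicate 2. Ratios then ranged from -0.43 to 0.0911 for Ankrd1 to Ankrd2, -0.31 to -0.13 for Ankrd1 to Ankrd23, -1.23 to -0.87 for Xirp2 to Xirp1, -0.18 to 0.25 for Fhl2 to Fhl1, -0.36 to -0.20 for Csrp3 to Fhl2 and 0.51 to 0.78 for Flnc to Flna. Of the correlations with Ankrd1, 2 in WT and 3 in B3AR-Tg passed, and 0 and 0 without the 2 animals farthest from the median. Levels near 3 counts, such as Ankrd2, are limited by depth.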
